A study of Mus musculus with 17 samples.

Results

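The 7 genes Fgf21, Gdf15, Fut1, Cd209c, Trim66, Tff3 and Dera were described here out of 31438 genes measured in the cerebellum of mice at postnatal day 3. They were chosen by measured values: each had risen with deletion of Atr, the replication-checkpoint kinase gene, in cerebella without p53. The choice was by name and had no numeric threshold. Their values without p53, and any difference between backgrounds, are therefore given as a description, and only the background without Bax and Bak was tested.

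All mice were of strain C57BL/6 and carried Math1-Cre, a recombinase driven by a gene of granule neuron progenitors, the dividing cells of the outer cerebellum. In the Bax/Bak background, 5 Atr-deleted samples added Atr-loxP/loxP to Math1-Cre, Bax-loxP/loxP and Bak--/-, and 4 controls had the same alleles without loxP-flanked Atr. In the p53 background, 5 Atr-deleted samples added Atr-loxP/loxP to Math1-Cre and p53-loxP/loxP, and 3 controls again lacked only the loxP-flanked Atr. Bax and Bak are the effectors of mitochondrial apoptosis. Bak was null in every cell, whereas Atr, Bax and p53 were only loxP-flanked, and cells in which Cre is not active may retain them. RNA came from whole cerebella after removal of the meninges, so the measurements mix cells with and without Cre. In such bulk RNA fewer cells of a type and less RNA per cell cannot be told apart. The labels do not say whether samples of a group came from separate litters or animals, so the p-values measure the spread between these samples.

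Of 17 libraries, 16 held 42625099 to 99794859 counts in genes, where 1 count was worth 0.01 to 0.0235 CPM (a gene's count over the library's total, scaled to a common size, on a scale comparable between libraries). The remaining one, replicate 3 of the Atr-deleted p53 group, held 13438 counts and 0 counts of all 7 genes. In it 3 counts, the limit that a count of 0 allows, corresponded to 223 CPM, far above any value below, and it was left out. Its sample number is the number of replicate 1 with a suffix, so whether it is a further mouse or a repeat of that one is not given, and the group may hold 4 mice. Atr itself did not check the labels: it stood at 35.3 to 42.8 CPM in the Atr-deleted and 39.6 to 48.2 CPM in the control Bax/Bak libraries, and at 34.2 to 40.9 against 36.6 to 38.3 CPM in the p53 background, where all ranges overlapped. Bax, Bak1 and Trp53, the other engineered genes, have the same alleles in both groups of each Atr comparison, which therefore cannot check their labels. In edgeR's test without Bax and Bak their log2 differences were -0.05, 0.28 and 0.03 (adjusted p = 0.695, 0.533 and 0.735). Between backgrounds they differed without overlap. Bak1 averaged 0.369 and 0.427 CPM in the Bax/Bak controls and Atr-deleted libraries, and 39.9 and 38.7 CPM in those of the p53 background. In the same order Bax averaged 34.3 and 31.9 against 66.8 and 65.7 CPM, and Trp53 69.4 and 68.3 against 37.8 and 38.9 CPM. Each gene was lower in the background labelled as lacking it. The 12 granule progenitor markers summed to 1930 to 3600 CPM and the 12 granule neuron markers to 1670 to 3380 CPM over the 16 libraries, so both cell types of the labelled tissue were present. In the Bax/Bak background, 22.5% of all tested genes were called higher and 22.0% lower. There 9 of the 12 progenitor markers were lower with Atr deletion and 2 higher, and 7 of the 12 neuron markers were lower and 1 higher. Of the astroglia markers 9 of 10 were higher and 1 lower, and of the oligodendrocyte markers 7 of 10 were higher and 1 lower. For Purkinje and interneuron markers 11 of 12 were higher and 0 lower, and for blood and vessel markers 3 of 11 and 0. Of these 6 lists, 0 markers passed edgeR's test in the p53 background. There 4 progenitor, 3 neuron and 5 oligodendrocyte markers had an unadjusted p under 0.05, a level reached by 6.58% of all tested genes. The astroglia, the Purkinje and interneuron, and the blood and vessel lists each had 0. The part of these markers in the results below was not tested. The libraries also carry number series in their labels. All Atr-deleted Bax/Bak libraries belonged to a series that held none of their controls, so genotype and series cannot be told apart there.

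Fgf21 and Gdf15 encode secreted stress hormones. Fgf21 acts on cells that carry an Fgf receptor together with beta-Klotho (Klb), and Gdf15 acts on Gfral, a receptor that signals with Ret in the hindbrain. Both genes are known targets of the integrated stress response, in which eIF2 kinases raise translation of the transcription factor Atf4, which then induces Ddit3 (Chop), Trib3 and amino acid genes. Gdf15 is also a known p53 target. Fut1 encodes a fucosyltransferase that makes H antigen, Cd209c a C-type lectin of the DC-SIGN family, Trim66 a chromatin-reading tripartite-motif protein, Tff3 a trefoil peptide best known from goblet cells, and Dera the aldolase that breaks down deoxyribose phosphate.

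Fgf21 and Fut1 are neighbours. In GRCm38 with GENCODE M21, Fgf21 lies on the minus strand of chromosome 7 at 45613886 to 45615490 and Fut1 on the plus strand at 45617289 to 45621059, so that they are transcribed away from each other with 1798 bases between them. By strand, the engineered Bax gene starts 148.6 kb from the start of Fgf21 and 150.4 kb from that of Fut1. Gdf15 lies on the minus strand of chromosome 8 at 70629393 to 70632456. The 250 bases before the start of these 3 genes, from RefSeq on GRCm38.p6, are shown because Fgf21 and Gdf15 are known stress-response targets and Fut1 lies beside Fgf21. The RefSeq start of Fut1 lies 317 bases inside the GENCODE gene, so its window falls within that gene and not between the pair, whereas the starts of Fgf21 and Gdf15 are the same in both annotations. They are chr7:45615491-45615740 (minus strand) for Fgf21, chr7:45617356-45617605 (plus strand) for Fut1 and chr8:70632457-70632706 (minus strand) for Gdf15. Capitals mark matches to TGATGNAA, the letters of a C/EBP-Atf composite element bound by Atf4, or to CACGTG, an E-box.
Fgf21: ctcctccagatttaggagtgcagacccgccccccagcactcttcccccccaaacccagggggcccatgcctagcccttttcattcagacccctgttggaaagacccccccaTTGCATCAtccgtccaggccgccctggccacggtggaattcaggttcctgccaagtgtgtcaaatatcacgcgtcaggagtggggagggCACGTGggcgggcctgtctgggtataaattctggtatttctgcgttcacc
Fut1: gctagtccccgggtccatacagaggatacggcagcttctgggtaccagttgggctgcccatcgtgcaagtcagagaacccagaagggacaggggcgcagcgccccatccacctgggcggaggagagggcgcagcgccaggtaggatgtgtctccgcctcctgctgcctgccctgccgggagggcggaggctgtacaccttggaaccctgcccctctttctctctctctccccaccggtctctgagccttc
Gdf15: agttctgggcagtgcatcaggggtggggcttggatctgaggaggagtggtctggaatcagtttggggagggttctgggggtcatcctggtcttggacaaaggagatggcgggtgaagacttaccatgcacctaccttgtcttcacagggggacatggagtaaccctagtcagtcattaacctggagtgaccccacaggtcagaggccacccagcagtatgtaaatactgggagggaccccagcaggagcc

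The 250-base windows were searched on both strands for 4 motifs, whose matches did not overlap each other, and 5 of the 7 genes had a promoter in the table. TGATGNAA was found for Fgf21 alone, as TTGCATCA on the other strand at 139 to 132 bases before the start, and 3.45% of 32851 promoters held it. CACGTG was found at 50 to 45 bases before the Fgf21 start and at 83 to 78 bases before a further Gdf15 start, and 6.02% of promoters held it. TGACGTCA, a cyclic AMP response element held by 1.55% of promoters, and the p53 half-site, held by 7.13%, had no match in the windows of the 5 genes. A match describes the letters only.

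In the Bax/Bak background, Fgf21, Gdf15, Fut1, Cd209c and Trim66 rose with Atr deletion, by 1.85-fold to 11.7-fold. Tff3 and Dera did not pass edgeR's quasi-likelihood test, adjusted by Benjamini-Hochberg over 17405 genes. These were 5 of 7 genes called higher, where 22.5% of all tested genes were called higher, 22.0% lower and 44.5% in either direction. The 5 genes also had every Atr-deleted library above every control, which held for 14.5% of tested genes. In the p53 background all 7 genes were above every control in every Atr-deleted deep library, against 3.8% of 17348 tested genes, a count that follows from how the genes were chosen. There 0.0461% of tested genes passed edgeR's threshold. Means below are given ± SD, over 4 controls and 5 Atr-deleted libraries in the Bax/Bak background and 3 controls and 4 deep Atr-deleted libraries in the p53 background.

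**Figure D1:**
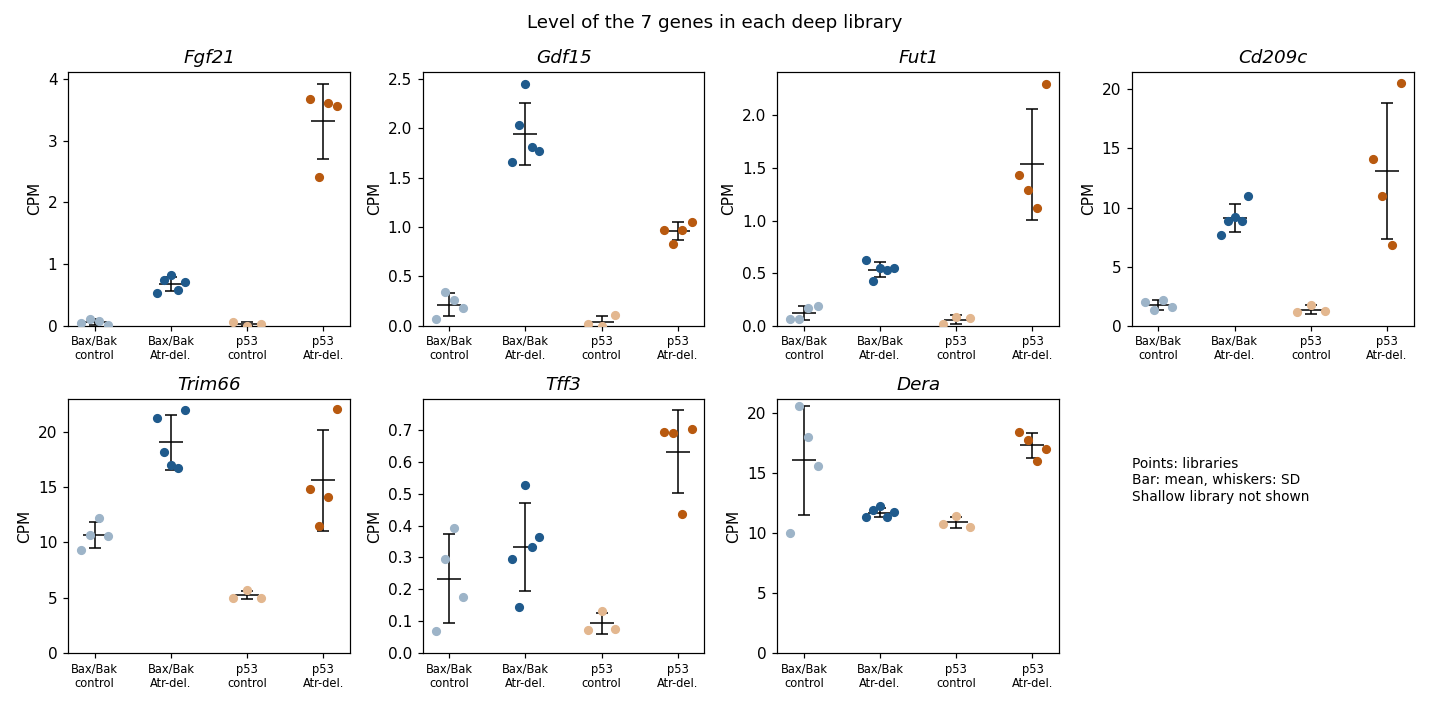
CPM of the 7 genes (y axis, linear, from 0) in each of the 16 deep libraries, as points by genotype group, with the group mean and SD as bars. Fgf21 is highest in the Atr-deleted p53 libraries, at 2.41 to 3.67 CPM, and Gdf15 in the Atr-deleted Bax/Bak libraries, at 1.66 to 2.45 CPM.

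Fgf21 stayed at or below 0.113 CPM in all controls. In the Bax/Bak controls, replicates 1 to 4 stood at 0.0461, 0.113, 0.0841 and 0.0104 CPM, from 2, 5, 6 and 1 counts. The Atr-deleted replicates 1 to 5 stood at 0.528, 0.749, 0.817, 0.584 and 0.71 CPM. Every Atr-deleted library was thus above every control, with means of 0.678 ± 0.119 CPM (SD, n = 5) and 0.0634 ± 0.0447 CPM (SD, n = 4). The fitted log2 fold change was 3.55 (SE 0.47), 11.7-fold, with an edgeR adjusted p of 0.000131. In the p53 controls, replicates 1 to 3 held 4, 0 and 2 counts, or 0.0573, 0 and 0.0302 CPM. The Atr-deleted p53 replicates 1, 2, 4 and 5 held 264, 157, 223 and 249 counts, or 3.67, 2.41, 3.61 and 3.57 CPM. Summed counts were 893 against 6, a ratio per depth of 113 with a 95% exact counting interval of 51.6 to 308, which covers counting error only. The order of levels was therefore Atr-deleted p53, Atr-deleted Bax/Bak and then the controls, whose ranges overlapped, and the Atr-deleted groups did not overlap. All reads were assigned to the single transcript Fgf21-201, with 3 exons.

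Gdf15 had the reverse order of the Atr-deleted groups. The Bax/Bak controls stood at 0.0692, 0.339, 0.266 and 0.177 CPM and the Atr-deleted replicates at 1.66, 2.03, 2.45, 1.81 and 1.77 CPM. The groups did not overlap, and the rise was 3.23 on the log2 scale (SE 0.33), 9.4-fold, with an edgeR adjusted p of 2.93e-05. The p53 controls held 1, 0 and 7 counts, or 0.0143, 0 and 0.106 CPM, and the Atr-deleted p53 libraries 0.973, 0.831, 0.971 and 1.05 CPM. Summed counts of 257 against 8 gave a ratio per depth of 24.3 (95% counting interval 12.2 to 56.9). Gdf15 was thus highest in the Atr-deleted Bax/Bak libraries, followed by the Atr-deleted p53 libraries and, without overlap, by the controls, and the control groups overlapped each other. The 2-exon transcript Gdf15-201 took 24.1% of the Gdf15 counts in the Atr-deleted Bax/Bak and 24.8% in the Atr-deleted p53 libraries, and 0 of 54 and 0 of 8 counts in the controls. The 3-exon Gdf15-202 held the rest. The division varied between libraries: Gdf15-201 held 33.01, 8.15, 0 and 22.49 counts in the Atr-deleted p53 replicates 1, 2, 4 and 5. In the Atr-deleted Bax/Bak libraries it held 14.98 to 46.39 counts. This division between overlapping transcripts is the authors' estimate.

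Fut1 followed Fgf21 in its order. It stood at 0.0692, 0.0678, 0.168 and 0.188 CPM in the Bax/Bak controls and at 0.626, 0.428, 0.545, 0.529 and 0.545 CPM with Atr deletion. No libraries overlapped, and the log2 fold change was 2.06 (SE 0.34), 4.18-fold, with an edgeR adjusted p of 0.000541. The p53 controls held 1, 6 and 5 counts and stood at 0.0143, 0.087 and 0.0756 CPM. The Atr-deleted p53 libraries stood at 1.43, 1.29, 1.12 and 2.3 CPM, replicate 5 being the highest. Summed counts of 416 against 12 gave a ratio per depth of 26.2 (95% counting interval 14.9 to 51.2).

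Cd209c was detected at over 1 CPM in every deep library. The Bax/Bak controls stood at 2.05, 1.31, 2.21 and 1.58 CPM and the Atr-deleted replicates at 7.64, 8.85, 9.21, 8.84 and 11 CPM. The rise was 2.40 on the log2 scale (SE 0.17), 5.27-fold, with an edgeR adjusted p of 3.73e-06 and no overlap. The p53 controls stood at 1.13, 1.77 and 1.21 CPM and the Atr-deleted p53 libraries at 14.1, 11, 6.85 and 20.5 CPM, a spread of 13.1 ± 5.74 CPM (SD, n = 4). The Atr-deleted groups overlapped each other, as did the control groups. Of the 31-base words of Cd209c transcripts, 19.9% also occur in 41 other genes, most of them (10.8%) in the pseudogene Olfr1372-ps1, so reads of these genes could be divided between them. Olfr1372-ps1 moved with Cd209c, from 3.29 to 11.5 CPM on average in the Bax/Bak background and from 2.97 to 13.9 CPM in the p53 background.

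Trim66 rose less and from a higher level. It stood at 9.3, 10.7, 12.2 and 10.6 CPM in the Bax/Bak controls and at 21.3, 18.2, 17, 16.7 and 22.0 CPM with Atr deletion. The log2 fold change was 0.88 (SE 0.11), 1.85-fold, with an edgeR adjusted p of 7.59e-05. The p53 controls, at 5.0, 5.66 and 5.02 CPM, lay below all Bax/Bak controls, and the Atr-deleted p53 libraries stood at 14.8, 11.5, 14.1 and 22.1 CPM. The Atr-deleted groups overlapped each other. Trim66-202, with 20 exons, held 94.1% to 96.9% of the counts in every group.

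Tff3 did not pass the test in the Bax/Bak background. The controls stood at 0.0692, 0.294, 0.392 and 0.177 CPM and the Atr-deleted libraries at 0.295, 0.143, 0.528, 0.334 and 0.364 CPM, so the groups overlapped. The log2 fold change was 0.53 (SE 0.47, edgeR adjusted p = 0.388). In the p53 background the controls stood at 0.0716, 0.131 and 0.0756 CPM and the Atr-deleted libraries at 0.695, 0.692, 0.437 and 0.703 CPM. Summed counts were 171 against 19 without p53 and 113 against 61 without Bax and Bak.

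Dera was the one of the 7 whose fitted change was negative in the Bax/Bak background. Its controls stood at 9.97, 20.6, 18 and 15.6 CPM and the Atr-deleted libraries at 11.3, 11.9, 12.2, 11.3 and 11.7 CPM. Control replicate 1 lay below all Atr-deleted libraries and the other 3 controls above all of them. The log2 fold change was -0.40 (SE 0.16, edgeR adjusted p = 0.0689). Without control replicate 1 it was -0.60 with an edgeR adjusted p of 0.000412. With that library kept, DESeq2 gave -0.42 with an adjusted p of 0.0246. An edgeR fit of all 16 deep libraries together gave -0.42 with an adjusted p of 0.0266. Whether Dera was called lower thus depended on this library and on the fit. In the p53 background the controls stood at 10.7, 11.4 and 10.5 CPM and the Atr-deleted libraries at 18.4, 17.7, 16 and 17 CPM, a log2 difference of 0.68 (SE 0.10). Dera-201 held 93.6% to 97.8% of the counts in every group.

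**Figure D2:**
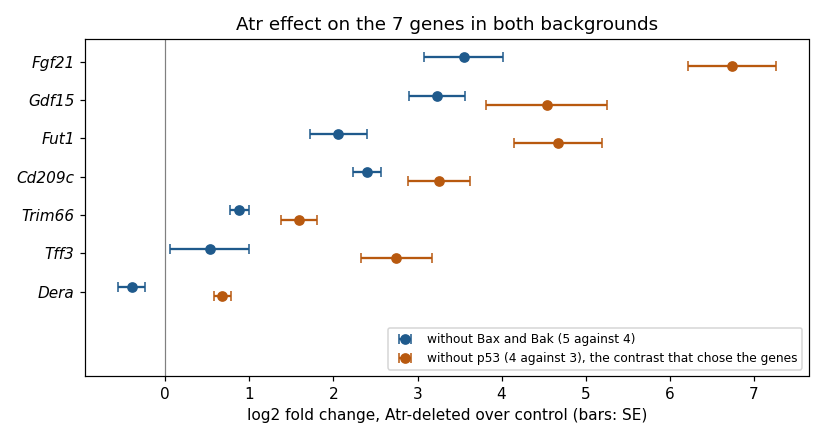
Fitted log2 fold change of Atr-deleted over control libraries (x axis, with SE) for the 7 genes in both backgrounds. The values without p53 chose the genes. Dera is at -0.40 without Bax and Bak and at 0.68 without p53.

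On the per-length scale (CPM per kb of transcript), which allows levels to be compared between genes, Dera, Cd209c and Fgf21 had the highest levels in the Atr-deleted p53 libraries, at 10.1, 8.60 and 3.49 CPM per kb. Trim66, Tff3, Gdf15 and Fut1 followed at 1.73, 1.28, 0.674 and 0.595 CPM per kb. In the Atr-deleted Bax/Bak libraries Dera was again first at 6.81 CPM per kb and Fut1 last at 0.207 CPM per kb, and Gdf15, at 1.37 CPM per kb, was above Fgf21, at 0.713 CPM per kb.

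The fitted log2 fold changes without p53 were 6.74 (SE 0.52) for Fgf21, 4.67 (SE 0.52) for Fut1, 4.54 (SE 0.72) for Gdf15, 3.26 (SE 0.37) for Cd209c, 2.75 (SE 0.42) for Tff3 and 1.59 (SE 0.21) for Trim66. Each was larger than in the Bax/Bak background, and the Bax/Bak effect minus the p53 effect ran from -0.71 (SE 0.23) for Trim66 to -3.19 (SE 0.79) for Fgf21. For Gdf15 that difference was -1.32 (SE 0.73) although its level with Atr deletion was higher in the Bax/Bak background. The mean of the Gdf15 controls was also lower in the p53 background, though the control groups overlapped. The p53 controls stood at 0.0401 ± 0.0574 CPM (SD, n = 3) and the Bax/Bak controls at 0.213 ± 0.116 CPM (SD, n = 4), which was not tested. In the p53 background 1 control belongs to the number series of the Atr-deleted libraries. Against that control alone the log2 fold changes were 5.80 for Fgf21, 5.88 for Gdf15, 6.56 for Fut1, 3.53 for Cd209c, 1.64 for Trim66, 3.10 for Tff3 and 0.69 for Dera. Against the 2 controls of the other series they were 7.64, 4.15, 4.21, 3.14, 1.56, 2.60 and 0.67 in the same order of genes. The Gdf15 value rests on control replicate 3, which held 7 of the 8 control counts: without it the log2 fold change was 6.72.

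The 7 genes did not all vary together over the 16 deep libraries, and the correlations below describe log2(CPM + 0.5), with libraries that share genotype and background. Among genes with a mean of at least 1 CPM, Fut1 was most like Fgf21 (Pearson's r = 0.959). Gdf15 was most like Stc2, a secreted glycoprotein of the stress response (0.934), and Trim66 was also most like Stc2 (0.951). Fgf21 with Gdf15 gave 0.593, Gdf15 with Trim66 0.875 and Gdf15 with Dera 0.031. The genes most like Fgf21 were the histone gene Hist1h2bc (0.962), the translation repressor gene Eif4ebp1 (0.932) and the histone gene Hist1h1c (0.898). Hist1h2bc went from 10.3 to 27.5 CPM in the Bax/Bak and from 10.2 to 54.0 CPM in the p53 background. Cd209c was most like Olfr1372-ps1 (0.988), Tff3 most like 4933408B17Rik (0.842) and Dera most like Tmc1 (0.8).

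The integrated stress response list holds eIF2 kinases, Atf4 and its partners, and further target genes, which stand beside Fgf21 and Gdf15 rather than above them. Of its 32 genes, 15 rose and 3 fell with Atr deletion in the Bax/Bak background (edgeR), where 22.5% of all genes tested rose and 22.0% fell, with a median log2 fold change of 0.16 against 0.0421 over all genes tested. Sesn2, a stress sensor that is also a p53 target, rose by 1.59 (adjusted p = 2.18e-07), and Atf3 by 1.30 (adjusted p = 2.5e-05). Aldh1l2, a mitochondrial folate enzyme, and Phgdh, the first enzyme of serine synthesis, rose by 0.36 (adjusted p = 9.11e-05) and 0.40 (adjusted p = 0.000143). Trib3, a pseudokinase induced by Ddit3, rose by 0.75 (adjusted p = 0.00321), and Ddit3 by 0.34 (adjusted p = 0.0271). Mthfd2, Psat1 and Pycr1, enzymes of one-carbon, serine and proline synthesis that Atf4 is known to induce, fell by 0.31, 0.21 and 0.26 on the log2 scale (adjusted p = 0.00112, 0.000611 and 0.0103). Atf4 itself stood at 148 ± 7.02 CPM (SD, n = 4) in controls and 133 ± 4.58 CPM (SD, n = 5) with Atr deletion, and its log2 difference of -0.10 did not pass the test (adjusted p = 0.0673).

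Without p53, 0 of the 32 genes passed edgeR's test, and 12 had an unadjusted p under 0.05, as did 6.58% of all 17348 genes. DESeq2 called 7 of the 32, and 128 over all genes. In edgeR's fit the median log2 fold change of the 32 was 0.20 against 0.01 over all genes. Atf3 went from 1.82 ± 0.439 (SD, n = 3) to 4.68 ± 1.67 CPM (SD, n = 4) and Ddit3 from 10.3 ± 1.95 to 16.4 ± 1.31 CPM. Their edgeR adjusted p-values were 0.352 and 0.340. For both genes every Atr-deleted library was above every control, which held for 3.8% of all tested genes. Trib3 had a log2 difference of 1.31 (adjusted p = 0.492), Stc2 one of 0.76 (adjusted p = 0.181) and Atf4 one of 0.05 (adjusted p = 0.914). The difference between the backgrounds was tested for these 32 genes over 18166 genes, of which 16.2% passed. The log2 effect was higher without Bax and Bak for 3 of them, Sesn2 among them (log2 difference 1.12, adjusted p = 0.000197), and higher without p53 for 4. Psat1 (-0.40, adjusted p = 0.00089) and Mthfd2 (-0.63, adjusted p = 0.00294) had the smallest adjusted p of those 4.

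**Figure D3:**
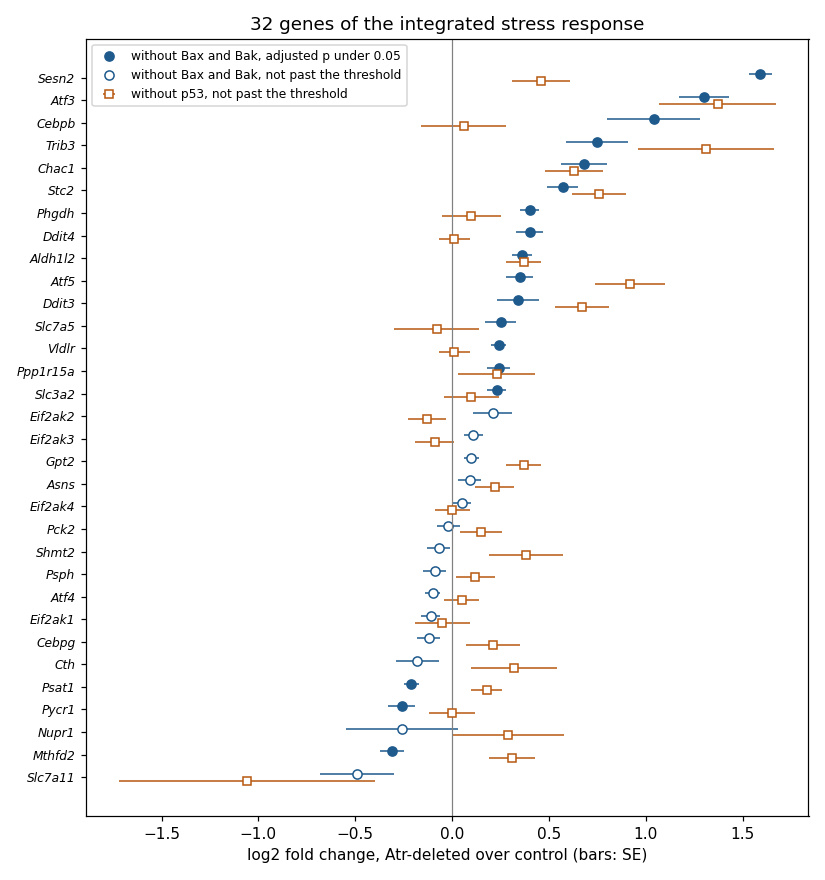
Fitted log2 fold change of Atr-deleted over control libraries (x axis, with SE) for 32 genes of the integrated stress response in both backgrounds. Filled circles passed edgeR's test without Bax and Bak. Sesn2 is highest there at 1.59, and Atf3 is at 1.30 and 1.37 in the Bax/Bak and p53 backgrounds.

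Other known regulators of the hormones moved in both directions. Of 15 genes, 6 rose and 5 fell in the Bax/Bak background, where 44.5% of all genes changed. The circadian repressor gene Nr1d1 rose by 0.96 (edgeR adjusted p = 2.12e-05). Hspa5, the chaperone of the endoplasmic reticulum, fell by 0.59 on the log2 scale (adjusted p = 1.38e-05), and Xbp1, a factor of the unfolded protein response, by 0.45 (adjusted p = 0.000211). Of these 15 genes 0 passed edgeR's test without p53, and 2 had an unadjusted p under 0.05. Of 28 p53 targets, 25 rose and 2 fell without Bax and Bak, with rises of Cdkn1a by 2.26 (adjusted p = 2.51e-07) and Mdm2 by 0.67 (adjusted p = 5.71e-06). For the same 28 without p53, 0 passed edgeR's test, 2 had an unadjusted p under 0.05, and Cdkn1a stood at 75.5 ± 7.91 against 76.0 ± 4.65 CPM.

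The receptors of the hormones were measured in the same libraries. Klb, the partner needed by Fgf21, was low in every group, at 0.136 ± 0.0538 against 0.252 ± 0.0689 CPM in the Bax/Bak background (log2 difference 0.95, edgeR adjusted p = 0.0615) and at 0.182 ± 0.0653 against 0.169 ± 0.142 CPM without p53. Gfral, the Gdf15 receptor, averaged 0 to 0.0558 CPM over the groups and was too low to be tested. Its co-receptor Ret rose by 0.44 in the Bax/Bak background (adjusted p = 0.00039), from 25.6 ± 1.14 to 33.5 ± 3.07 CPM. Fgfr1, Fgfr2 and Fgfr3 rose by 0.14, 0.40 and 0.92 (adjusted p = 0.0389, 0.00302 and 0.0292), and Fgfr4 had a log2 difference of -0.05 (adjusted p = 0.803). Of 19 receptors and relatives tested, 9 rose and 0 fell without Bax and Bak, where 22.5% of all genes rose and 22.0% fell. The share called in either direction was close to the 44.5% of all genes. With 10 at an unadjusted p under 0.05, the share at that p was close to the 51.8% of all genes. Among the relatives of Gdf15, Gdf10 rose by 1.34 (adjusted p = 5.96e-06). Gdf10 is a marker of Bergmann glia and is itself among the 10 astroglia markers. Of these, 9 were higher in the same libraries, where 22.5% of all genes rose. The part of astroglia in the rise of Gdf10 was not tested. None of the 19 tested without p53 passed edgeR's test (0 of 19), and 0 had an unadjusted p under 0.05.

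The genes beside the 7 on their chromosomes were tested too. Of 36 protein-coding neighbours, 3 on each side of each gene, 13 of 27 tested passed edgeR's test in the Bax/Bak background, 9 higher and 4 lower, where 44.5% of all genes passed. Of 26 neighbours tested without p53, 0 passed edgeR's test, with a smallest adjusted p of 0.374. Izumo1, a sperm-egg fusion gene that begins 751 bases beyond the end of Fut1, averaged 0.00961 against 0.118 CPM in the Bax/Bak background, where it was too low to be tested. Without p53 it averaged 0.109 ± 0.0901 (SD, n = 3) against 0.355 ± 0.0699 CPM (SD, n = 4), a log2 difference of 1.70 (SE 0.56, edgeR adjusted p = 0.613). In both backgrounds all Atr-deleted libraries were above all controls for Izumo1. This held for 14.5% of tested genes without Bax and Bak and 3.8% without p53. On the other side of Fgf21, Bcat2 had log2 differences of -0.42 (adjusted p = 0.0616) and -0.04 (adjusted p = 0.961). Rasip1 rose by 0.29 in the Bax/Bak background (adjusted p = 0.00555) and had a log2 difference of 0 without p53. Next to Gdf15, Pgpep1 rose by 0.52 (adjusted p = 8.49e-05) and Ssbp4 by 0.39 (adjusted p = 0.000128) in the Bax/Bak background, and Lsm4 fell by 0.19 (adjusted p = 0.029). The other neighbours that fell there were Mamstr beyond Fut1, by 0.97 (adjusted p = 0.019), Rpl27a beside Trim66, by 0.38 (adjusted p = 0.000692), and Strap beside Dera, by 0.22 (adjusted p = 0.00441). Next to Tff3, the cholesterol transporter gene Abcg1 rose by 0.75 (adjusted p = 0.0001).

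**Figure D4:**
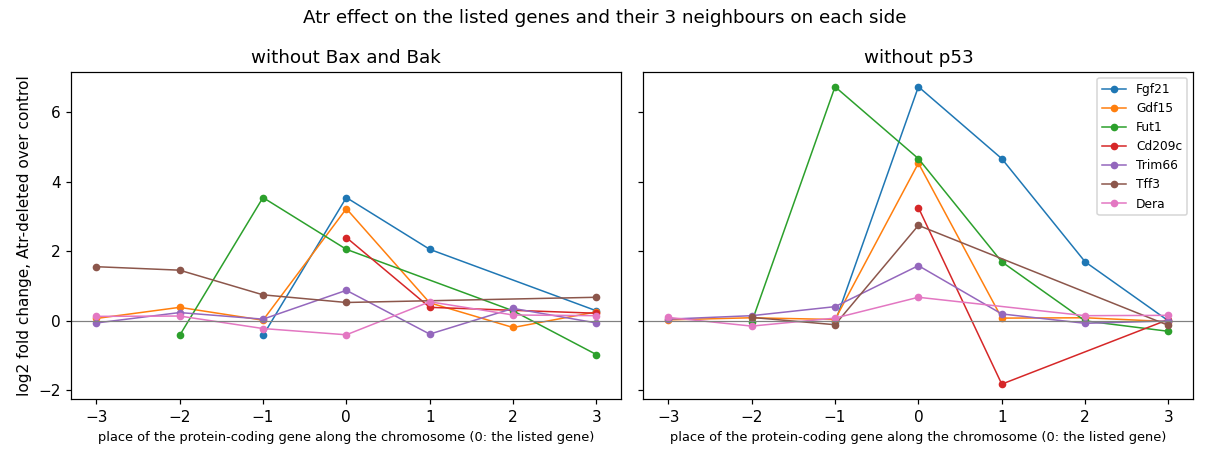
Fitted log2 fold change (y axis) of each of the 7 genes (place 0) and its 3 protein-coding neighbours on either side (x axis, order along the chromosome), in both backgrounds. Genes too low to be tested are left out, and Fgf21 and Fut1 appear on each other's lines. Apart from these, the neighbours without p53 lie between -1.82 and 1.70.

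Close relatives of the 7 were followed as well. Of 14 relatives tested in the Bax/Bak background 1 rose and 6 fell, where 22.5% of all genes rose and 22.0% fell. The share called in either direction was close to the 44.5% of all genes. The fucosyltransferase gene Fut8 fell by 0.54 (edgeR adjusted p = 5.71e-06), and Fut4 was the one that rose, by 0.56 (adjusted p = 0.0427). Trim28 and Trim33, relatives of Trim66, fell by 0.25 (adjusted p = 0.00682) and 0.19 (adjusted p = 0.00464). Of the relatives without p53, 0 of 13 passed edgeR's test and 1 had an unadjusted p under 0.05. The lectin gene Cd209f stood at 1.12 ± 0.148 against 0.315 ± 0.154 CPM, opposite in sign to Cd209c (log2 difference -1.82, adjusted p = 0.374). Cd209a, Cd209b, Cd209d, Cd209e and Cd209g, with Tff1 and Tff2, were too low to be tested. Of 14 genes of deoxyribose and fucose metabolism, 6 rose and 4 fell in the Bax/Bak background, against 44.5% of all genes called. Thymidine kinase (Tk1), which is expressed in S phase, fell by 1.08 (adjusted p = 6.31e-06), and the GDP-fucose transporter gene Slc35c1 rose by 0.39 (adjusted p = 0.000756). The same 14 genes without p53 gave 0 that passed edgeR's test and 1 with an unadjusted p under 0.05.

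Markers of cells known for Cd209 lectins and Tff3 were set beside both genes. Of 14 macrophage and microglia markers 8 rose and 0 fell in the Bax/Bak background, where 22.5% of all genes rose, and their sum was 148 to 221 CPM in controls and 197 to 239 CPM with Atr deletion. Itgam rose by 1.01 (edgeR adjusted p = 0.000203) and Cx3cr1 by 0.53 (adjusted p = 0.000531). Mrc1, Cd163 and Lyve1 of the same list had log2 differences of -0.28, -0.32 and -0.23 there (adjusted p = 0.496, 0.368 and 0.439). Without p53 these 3 had log2 differences of -0.30, -0.38 and -0.49 (adjusted p = 0.866, 0.844 and 0.863). The part of the macrophage and microglia markers in the 5.27-fold rise of Cd209c was not tested. The macrophage list without p53 had 0 of 14 that passed edgeR's test, with 1 at an unadjusted p under 0.05, and the sum was 202 to 235 CPM in controls and 203 to 215 CPM with Atr deletion, while Cd209c went from 1.37 ± 0.348 to 13.1 ± 5.74 CPM. Of 12 goblet, pancreas and liver markers, 6 were high enough to test in each background, and their sums ran from 2.73 to 3550 CPM over the 16 libraries, with the choroid plexus gene Ttr among them. The goblet gene Zg16 was at 0 in all deep libraries. Of the 6 tested, 2 rose and 0 fell in the Bax/Bak background, where 22.5% of all genes rose, and 0 passed edgeR's test without p53. Muc2 rose from 0.0964 ± 0.0661 to 0.344 ± 0.0973 CPM in the Bax/Bak background (adjusted p = 0.00958), where Tff3 did not pass. It stood at 0.154 ± 0.12 against 0.216 ± 0.0333 CPM without p53 (adjusted p = 0.877). Fcgbp, the other marker that rose, did so by 0.61 on the log2 scale (adjusted p = 0.0297). The 12 meninges and choroid plexus markers summed to 276 to 4860 CPM over the libraries, and 0 passed edgeR's test in either background, with 1 and 0 at an unadjusted p under 0.05.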

How the data were processed

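RNA was measured in poly-A selected, stranded libraries, per the labels' protocols. The authors deposited estimated counts per transcript and lane, 2 lanes a library, in a table for each background. The submitters' processing notes name kallisto 0.42.4, edgeR and the builds mm9 and GRCm38, and their roles are not given in the sources used here. No normalization is recorded.

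The 7 genes, the lists and the alternatives were chosen with earlier results of these data known. Samples were grouped by genotype label. Lanes were added and 92284 of 94080 transcript identifiers matched to GENCODE M21, with 0.779% to 1.039% of the counts unmatched in the deep libraries. Counts were summed to genes and rounded. The shallow library has identical lane columns, counted once, and was left out. CPM use TMM scaling over 16 libraries. Separate edgeR fits were made for the backgrounds (edgeR 4.0.16, R 4.3.3, default expression filter, robust quasi-likelihood test, Benjamini-Hochberg adjustment, threshold 0.05), and the difference of the effects was fitted over all 16. The fits were tested on simulated data.

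Named genes are the 7, the engineered genes, up to 4 called genes of smallest p per list, the hormone receptors, Atf4, Ddit3, Trib3, Cdkn1a and Mdm2, 3 neighbours on each side, and the 3 genes most like each in the 16 libraries. Genes outside the rule, such as Mthfd2, Psat1, Pycr1, Fut4, Trim28, Mrc1, Cd163 and Lyve1, were picked after their values were seen. Alternatives were other scalings, filters, DESeq2 1.42.0, limma-voom (limma 3.58.1), a joint fit, the shallow library included, controls of 1 number series and each library left out. Tables and figures used Python 3.11.15, pandas 2.3.3 and matplotlib 3.10.9.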

Additional observations from a re-analysis of the deposited data

Results flagged for a closer look

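In 21 groups of 4 or 5 libraries examined for a library that stands apart, where chance gives about 1 in 20, 2 did. Fgf21 in replicate 2 of the Atr-deleted p53 libraries, at 2.41 CPM, lay below the other 3, which were at 3.57 to 3.67 CPM. Tff3 in replicate 4 of that group, at 0.437 CPM, lay below the others, at 0.692 to 0.703 CPM. Both remained above all p53 controls.

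Among the stress response genes, the receptors and relatives, and the other genes named here outside the 7, edgeR's test of the difference between the Atr effects passed for 31. Values are the log2 effect without Bax and Bak minus that without p53, and 16.2% of all genes tested passed. Of the p53 targets, Cdkn1a differed by 2.26 and Mdm2 by 0.62. Of the stress response genes, Sesn2 differed by 1.12, Cebpb by 0.97 and Ddit4 by 0.39, and Mthfd2 by -0.63, Atf5 by -0.58, Psat1 by -0.40 and Gpt2 by -0.28. Of the receptors and relatives, Gdf10 differed by 1.21, Fgfr3 by 1.16, Gfra1 by 0.72, Fgfr2 by 0.55, Ret by 0.51 and Gdf11 by 0.45. Of the other regulators, Nr1d1 differed by 0.95, Hspa5 by -0.69 and Xbp1 by -0.52. Of the neighbours, Cd209f differed by 2.19, Abcg1 by 0.85, Pgpep1 by 0.43, Ssbp4 by 0.29, Rpl27a by -0.59 and Strap by -0.31. Of the relatives and metabolic genes, Slc35c1 differed by 0.47, Tk1 by -0.78 and Fut8 by -0.45. The macrophage markers Itgam and Cx3cr1 differed by 1.14 and 0.55. Of the genes most like the 7, Tmc1 differed by -2.25 and Hist1h2bc by -0.94, and these were picked for their likeness over the same libraries.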

How the results depend on the processing

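Fgf21 and Fut1 stayed called higher without Bax and Bak in 17 of 17 alternatives, with log2 fold changes of 3.07 to 3.93 and 1.60 to 2.97, and Gdf15, Cd209c and Trim66 in 18 of 18, at 2.95 to 3.44, 2.23 to 2.52 and 0.76 to 0.97. Tff3 passed in 0 of 17 and Dera was called lower in 4 of 18. A mean of at least 1 CPM left 3 of the 7 called, because Fgf21 and Fut1 lie under it. Leaving out 1 library called 5 of the 7 higher each time and, without control replicate 1, also Dera lower. No result reversed. The 8 genes called without p53 became 14 with no filter, 128 with DESeq2, 4 with limma-voom, 70 in the joint fit, 23 with the shallow library, 5 and 13 with controls of number series 1843 or 1845, and 2 to 13 with 1 library left out. Stress response genes called there were 7 with DESeq2 and 6 in the joint fit. The 2936 differences became 453 with controls of series 1843 and 1629 to 3561 with 1 library left out. The cause was not tested. Control sums of 6 to 12 counts limit the folds of Fgf21, Gdf15 and Fut1 without p53. No paired analysis was possible because no label pairs an Atr-deleted sample with a control: 1 p53 control shares the number series 1843 with the Atr-deleted libraries, and its own number in it with none of them.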
